A study of Mus musculus with 6 samples.

Results

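The genes described here encode the subunits, activators and assembly factors of the mouse proteasome, measured by RNA sequencing in eosinophils grown from bone marrow and exposed to interleukin-33 (IL-33), an alarm cytokine released by damaged epithelium. Members were taken by name, as every gene whose symbol starts with Psma to Psmg followed by a number. This gave 49 of the 23420 genes in the table. One of them, Psmc3ip, is a meiotic recombination factor that shares only the name (limma log2 fold change -0.58, SE 0.43, adjusted p = 0.319), which left 48 proteasome genes. Of these, 45 passed a filter of at least 10 normalized counts in at least 3 libraries and were tested. The other 3 were Psma8, a testis alpha subunit, with 0 to 2 reads in any library, Psmb11, the thymus beta subunit, with 0 to 3 reads, and the assembly chaperone Psmg2, with 1 to 4 reads after IL-33 and 6 to 19 in the controls. They were not tested.

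Bone marrow cells of wild-type (WT) mice were expanded with SCF and FLT3-L, each at 100 ng/mL, until day 4 and then matured with IL-5 at 20 ng/mL until day 14. Dead cells were removed and the cells were held for 3 hours with IL-33 at 2.5 ng/mL (3 libraries) or with PBS vehicle (3 libraries), so that both groups had the same IL-5 culture. Ribosomal RNA was depleted from the total RNA before strand-specific libraries were made. Whether replicate libraries stem from different animals or cultures is not stated in the labels, so the p-values below reflect library-to-library spread alone, and part of that may be technical.

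The proteasome degrades proteins tagged with ubiquitin. Its core particle is a barrel of stacked rings, with outer alpha rings that gate the entrance and inner beta rings of which a few subunits are proteases. The regulatory particle caps the barrel: an ATPase ring unfolds the substrate, and a lid removes the ubiquitin chain. In immune cells the catalytic subunits Psmb5, Psmb6 and Psmb7 can be replaced during assembly by Psmb8, Psmb9 and Psmb10, which gives the immunoproteasome. That form changes the peptides cut for presentation on class I molecules, and its genes are known as targets of interferon signalling.

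Each library held 8218303 to 10785521 reads on genes, recovered from the deposited values. Ribosomal precursor RNA (Rn45s) took 59.6% and 54.8% of the reads in IL-33 replicates 2 and 3, against 24.3% in IL-33 replicate 1 and 13.7% to 24.8% in the PBS libraries, so IL-33 replicates 2 and 3 stand apart and have fewer reads on all other genes. Eosinophil markers were present in all 6 libraries, and 4 of the 5 measured (Epx, Prg2, Ccr3 and Il5ra) were lower after IL-33, with a summed level of 12719 to 23918 normalized counts against 37082 to 48761. Of 5 genes listed as macrophage markers, Csf1r and Emr1 were higher (summed level 24090 to 30452 against 8099 to 10656). The others, C1qa, C1qb and Ms4a7, were at or near 0 in every library. The sum therefore reflects Csf1r and Emr1 and does not show that macrophages were present. Of 6 neutrophil markers 2 were lower, S100a9 and Mpo, and the list summed to 467.8 to 1163 against 1264 to 1504. Of 6 mast cell and basophil markers 1 was lower, Cpa3, and the list summed to 65.6 to 98.3 against 87.0 to 190.1. The dendritic markers summed to at most 14.8 and the lymphoid markers to at most 76.1, with Cd3e at 0 in the IL-33 libraries and Ncr1 at 0 in all. None of the 2 lymphoid markers tested was called, and the dendritic markers were too low to test. Of 4 erythroid and megakaryocyte markers Hba-a1 was at 0 in every library and Pf4 was higher (169.2 to 453.1 against 201.5 to 489.2 for the list). The part of these changes in the results below was not tested, and in bulk RNA fewer cells of a type and less RNA per cell cannot be told apart.

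After IL-33, 10 proteasome genes were higher and 2 were lower at a Benjamini-Hochberg adjusted p under 0.05. The 10 were the standard catalytic subunits Psmb5 and Psmb6, the immunoproteasome subunit Psmb10, the alpha subunit Psma7, the regulatory particle subunits Psmd1, Psmd4, Psmd7 and Psmd13, and the activators Psme2 and Psme3. The 2 lower genes were the immunoproteasome subunit Psmb9 and the chaperone Psmg4. Psmg4 passed the filter only through the PBS group, where it is high, so its call, though counted below, supports nothing further. Values are normalized counts, and the test was limma on log2(normalized count + 1) over all 10544 genes tested. Of all those genes 17.4% were called higher and 14.4% lower, so the number of proteasome genes called higher is near the background and the number called lower is below it. The median log2 fold change of the 45 members was 0.10, beside -0.03 over all genes tested. In 16 members every IL-33 library was above every PBS library and in 2 every IL-33 library was below, beside 25.5% and 24.7% of all genes. Both count tests on the recovered reads, edgeR and DESeq2, also gave 10 higher and 2 lower, and all 12 calls were made by each. Leaving out IL-33 replicate 1 kept all 12 calls and brought the members called to 11 higher and 16 lower, beside 28.0% and 28.4% of all genes. With IL-33 replicate 1 as the only treated library, its spread assumed to be that of the PBS group, 23 were called higher and 2 lower, beside 18.8% of all genes in each direction; 8 of the 10 and 1 of the 2 calls were shared. Of the 12 calls, 4 were left when PBS replicate 3 was dropped, 5 when PBS replicate 2 was, 6 for IL-33 replicate 2, 7 for PBS replicate 1 and 10 for IL-33 replicate 3. Scaled to equal library totals, 1 member was called higher, Psmb5, and 11 lower, beside 2.48% and 50.1% of all genes, and with equal totals outside Rn45s 3 were higher (Psmb5, Psmd7 and Psme2) and 5 lower, beside 9.02% and 33.8%. Equal totals moved the median of all genes to -1.06, and relative to that median the 10 members called higher stood at 0.64 to 1.79. Equal totals shift all genes by nearly the same amount, so these relative values restate the main result. They do not show that the calls held.

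**Figure D1:**
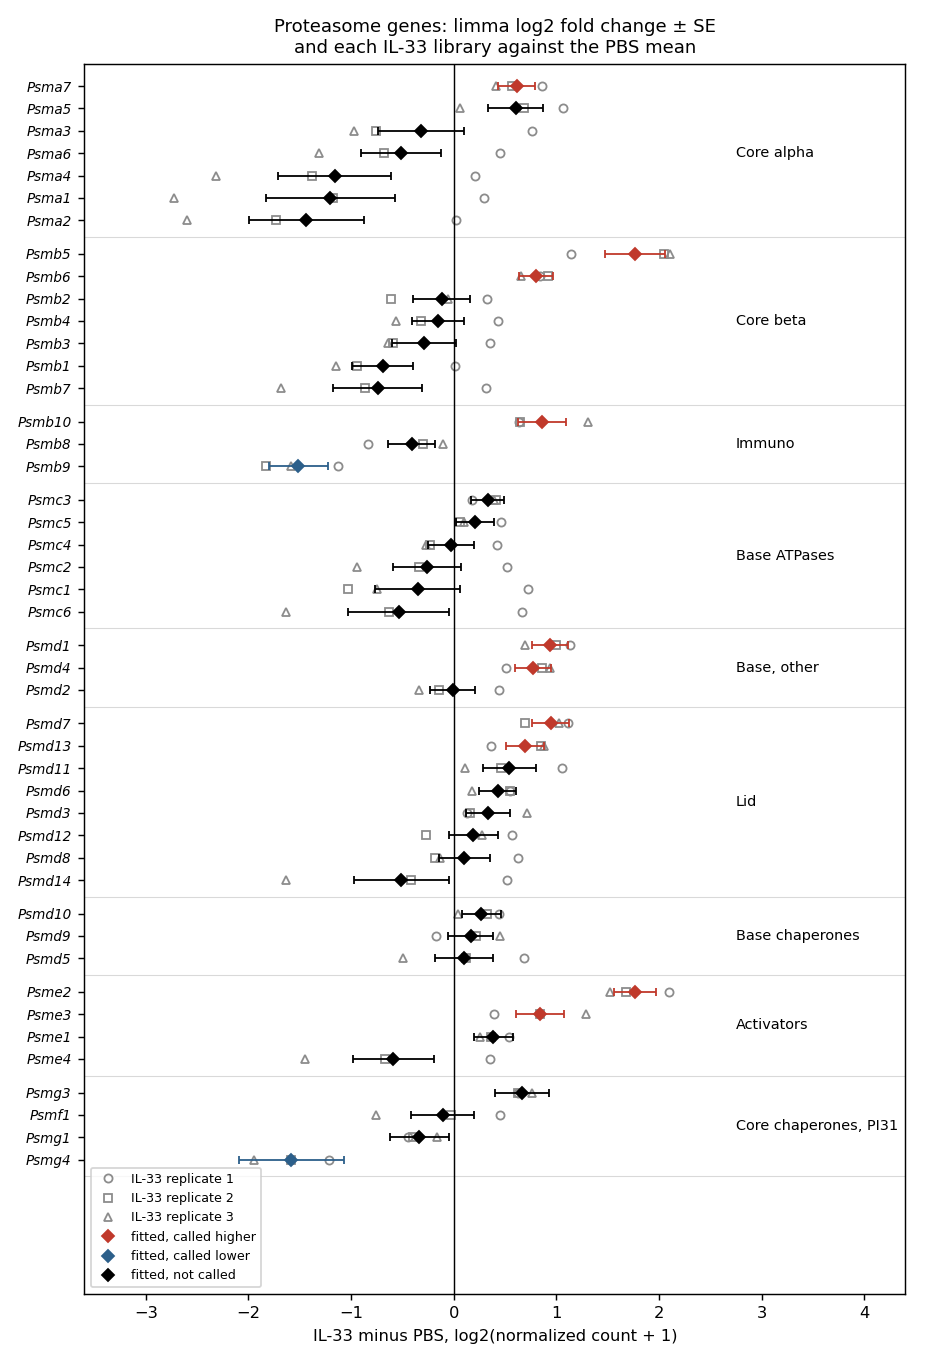
Difference between IL-33 and PBS for the 45 tested proteasome genes by group, on the log2(normalized count + 1) scale. Diamonds with bars are the limma estimate ± SE (red higher, blue lower, black not called) and open symbols are single IL-33 libraries against the PBS mean; most open circles (IL-33 replicate 1) lie to the right of 0, and in many alpha subunits and ATPases the triangles (IL-33 replicate 3) lie far to the left.

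The catalytic subunits of the core moved apart. Psmb5, the standard subunit with chymotrypsin-like activity (chr14:54614119-54618022 in mm10, minus strand), had 635, 1197 and 1246 normalized counts after IL-33 and 374, 264 and 241 with PBS. All IL-33 libraries were above all PBS libraries, with replicate 1 the lowest of the 3. The means were 1026 ± 339 and 293 ± 70.8 (SD, n = 3 per group), a limma log2 fold change of 1.77 (SE 0.29, adjusted p = 0.00463), and this call held under each of the 20 alternative settings and library sets tried.

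Psmb6, the standard subunit with caspase-like activity (chr11:70525367-70527858, plus strand), had 639, 677 and 563 normalized counts after IL-33 and 396, 343 and 335 with PBS. The groups did not overlap and the IL-33 libraries were close to each other. Its means were 626 ± 58.1 and 358 ± 33.3 (SD, n = 3 per group), and the log2 fold change was 0.81 (SE 0.17, adjusted p = 0.0103). The call was lost without PBS replicate 2 (adjusted p = 0.0614) or PBS replicate 3 (adjusted p = 0.0671), where the range over the 20 alternatives was 0.000135 to 0.563, and with libraries scaled to equal totals the log2 fold change was -0.23.

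Psmb7, the standard subunit with trypsin-like activity (chr2:38588036-38644087, minus strand), had 308, 135 and 76.3 normalized counts after IL-33 and 232, 244 and 266 with PBS. IL-33 replicate 1 was above every PBS library and replicates 2 and 3 were below every one, so the IL-33 libraries did not share a direction. The log2 fold change was -0.74 (SE 0.44, adjusted p = 0.215). Without IL-33 replicate 1 it was -1.27 and the gene was called lower (adjusted p = 0.000781, the lowest over the 20 alternatives; the highest was 0.557), and with IL-33 replicate 1 as the only treated library it was 0.32.

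Among the immunoproteasome subunits 1 was higher, 1 lower and 1 not called, beside 17.4% higher and 14.4% lower over all genes. Psmb8, the counterpart of Psmb5 (chr17:34197721-34201454, plus strand), had 220.3, 318 and 366 normalized counts after IL-33 and 339, 453 and 395 with PBS. Only IL-33 replicate 3 reached into the PBS range. The means were 302 ± 74.3 and 395 ± 57.0 (SD, n = 3 per group), and the log2 fold change was -0.41 (SE 0.23, adjusted p = 0.196). Psmb8 was called lower with equal totals (-1.45) and with equal totals outside Rn45s (-0.83), beside 50.1% and 33.8% of all genes. With IL-33 replicate 1 as the only treated library its log2 fold change was -0.83.

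Psmb9, the counterpart of Psmb6 (chr17:34181987-34187764, minus strand), had 30.6, 18.5 and 22.0 normalized counts after IL-33, from 34, 12 and 13 reads, and 55.1, 72.8 and 79.0 with PBS, from 71, 100 and 113 reads. Every IL-33 library was below every PBS library. The means were 23.7 ± 6.22 and 69.0 ± 12.4 (SD, n = 3 per group), and the log2 fold change was -1.52 (SE 0.29, adjusted p = 0.00736). The direction was the same under all 20 alternatives, and the call was lost only without PBS replicate 3 (adjusted p = 0.0524, which is the highest over the alternatives; the lowest was 0.000242). Its low depth limits the precision of each library's value.

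Psmb10, the counterpart of Psmb7 (chr8:105935735-105938444, minus strand), had 172, 172 and 275 normalized counts after IL-33 and 104, 107 and 119.5 with PBS. The groups did not overlap, and IL-33 replicate 3 was the highest. Its means were 206 ± 59.2 and 110.2 ± 8.21 (SD, n = 3 per group), and the log2 fold change was 0.86 (SE 0.23, adjusted p = 0.0265). The call was lost without IL-33 replicate 2 or any 1 PBS library (adjusted p from 0.0531 to 0.101; range over the 20 alternatives 0.00289 to 0.679), and with equal totals the log2 fold change was -0.17.

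**Figure D2:**
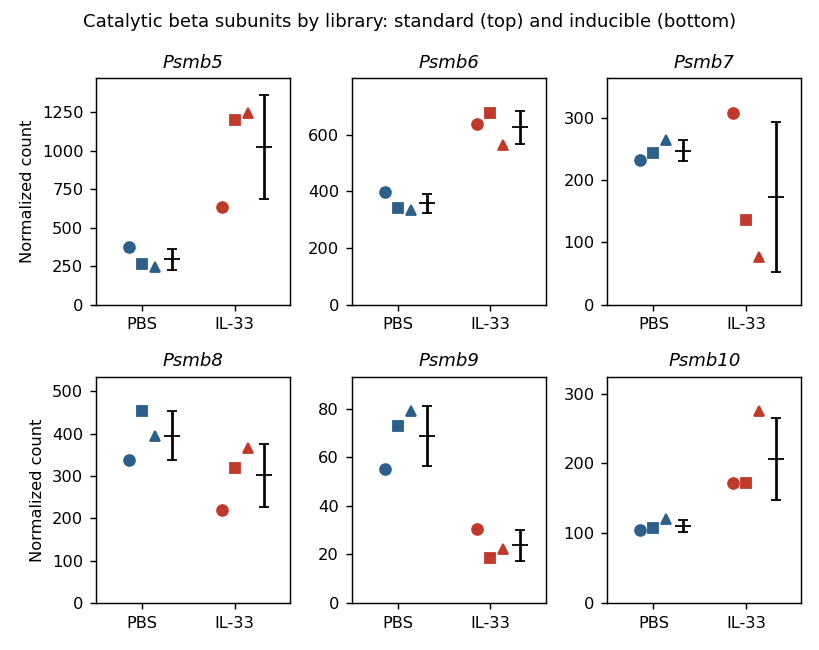
Normalized counts (y axis, starting at 0) of the standard catalytic subunits and their immunoproteasome counterparts in the 3 PBS (blue) and 3 IL-33 (red) libraries; circles, squares and triangles are replicates 1, 2 and 3, and the black bars are the group mean ± SD. The IL-33 points lie above all PBS points for Psmb5, Psmb6 and Psmb10, below them for Psmb9, and on both sides for Psmb7.

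The ratio of the inducible to the standard subunit within a library does not depend on how libraries are scaled. It can still vary with transcript GC content, described below. That was 56.5% for Psmb10 and 48.7% for Psmb7, 55.8% for Psmb8 and 56.6% for Psmb5, and 55.25% for Psmb9 and 55.8% for Psmb6. The ratios were not recomputed with the GC trend removed. For Psmb8 to Psmb5 the log2 ratio of normalized counts was -1.53, -1.91 and -1.77 after IL-33 and -0.14, 0.78 and 0.71 with PBS. For Psmb9 to Psmb6 it was -4.39, -5.20 and -4.67 after IL-33 and -2.84, -2.24 and -2.08 with PBS. Both ratios were lower in every IL-33 library than in every PBS library, by -2.18 (SE 0.32) and -2.36 (SE 0.33). Per kilobase of exon, Psmb8 stood at 0.784 ± 0.246 of the level of Psmb5 with PBS and at 0.167 ± 0.0227 after IL-33, and Psmb9 at 0.116 ± 0.0298 and 0.0225 ± 0.00609 of the level of Psmb6 (SD, n = 3 per group). The third pair went the other way: the log2 ratio of Psmb10 to Psmb7 was -0.84, 0.35 and 1.85 after IL-33 and -1.16, -1.19 and -1.15 with PBS, a difference of 1.62 (SE 0.78) with a wide spread among the IL-33 libraries, where Psmb7 itself ran from 308 to 76.3. A two-sided exact permutation test over the 6 libraries gave p = 0.1 for each of the 3 ratios, which is the smallest that 3 against 3 can give, and 0.1 after adjustment over the 3. In each PBS library the standard subunit of a pair had the higher level per length, with means of 326, 448 and 213 normalized counts per kilobase of exon for Psmb5, Psmb6 and Psmb7 against 243, 51.0 and 84.0 for Psmb8, Psmb9 and Psmb10. For Psmb8 to Psmb5 the per-length ratio was 0.501, 0.946 and 0.904 in PBS replicates 1, 2 and 3. Before division by exon length Psmb8 was above Psmb5 in PBS replicates 2 and 3. The order of this pair therefore rests on the exon lengths used.

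**Figure D3:**
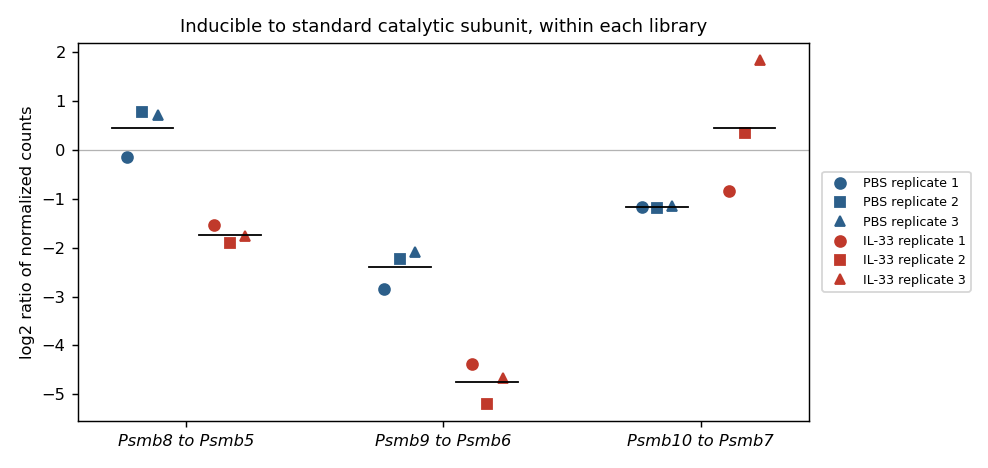
Log2 ratio of normalized counts of each immunoproteasome subunit to the standard subunit it replaces (y axis), in each library, with lines at the group means. The IL-33 libraries lie below all PBS libraries for Psmb8 to Psmb5 and Psmb9 to Psmb6 and above them for Psmb10 to Psmb7.

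Several of these genes share sequence with a neighbour or a copy. Exons of other genes overlap 34.9% of the exonic bases of Psmb7 (Nek6), 15.7% of Psmb9 (Tap1), 12.1% of Psmb5 (Mir686) and 11.4% of Psmb8 (Gm20496). The strand setting of the authors' counting is not given in the sources used here, so counts in these stretches are uncertain. Psmb5 is 95.0% identical to its pseudogene Psmb5-ps over 783 aligned bases, and Psmb6 is 93.9% identical to Psmb6-ps2 over 704 bases.

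The promoters of 3 catalytic subunits are shown, those of 2 genes that rose and of the one that fell, chosen because all 3 carry the same short core. Each runs from 250 bases before to 50 bases after the RefSeq transcript start in GRCm38.p6 (mm10), 5′ to 3′ on the gene's strand. Capitals mark matches to TGANNNNGC, a loose form of the antioxidant response element core in which N is any base. In Psmb9 they also mark the CCAAT box, read as ATTGG on the opposite strand. Matches to this loose pattern were in 41.3% of all promoter windows, and binding by any factor was not tested. The windows are chr14:54617946-54618245 for Psmb5, chr11:70525107-70525406 for Psmb6 and chr17:34187281-34187580 for Psmb9.
Psmb5: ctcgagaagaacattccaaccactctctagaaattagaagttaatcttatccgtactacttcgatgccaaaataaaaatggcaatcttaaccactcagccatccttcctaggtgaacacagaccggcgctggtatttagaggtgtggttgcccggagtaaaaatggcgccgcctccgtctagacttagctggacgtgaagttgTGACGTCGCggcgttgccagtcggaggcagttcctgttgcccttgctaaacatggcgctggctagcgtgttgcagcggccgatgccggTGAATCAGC
Psmb6: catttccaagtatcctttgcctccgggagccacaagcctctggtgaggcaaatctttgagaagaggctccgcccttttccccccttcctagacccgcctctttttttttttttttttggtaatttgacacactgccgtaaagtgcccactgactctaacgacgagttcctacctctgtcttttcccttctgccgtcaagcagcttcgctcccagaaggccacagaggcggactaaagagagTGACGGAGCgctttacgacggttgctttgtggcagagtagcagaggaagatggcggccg
Psmb9: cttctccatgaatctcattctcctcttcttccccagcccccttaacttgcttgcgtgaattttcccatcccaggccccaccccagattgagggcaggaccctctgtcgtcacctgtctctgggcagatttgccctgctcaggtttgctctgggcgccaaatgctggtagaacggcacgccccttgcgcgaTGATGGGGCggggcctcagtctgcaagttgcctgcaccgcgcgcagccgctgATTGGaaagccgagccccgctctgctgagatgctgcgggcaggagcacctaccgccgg
The core starts 47 bases before and 41 bases after the transcript start in Psmb5, 9 bases before it in Psmb6 and 60 bases before it in Psmb9. The window of Psmb8, which was not called, holds this core too, and that of Psmb10, which was called higher, holds none of the motifs searched.

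Over the family, 40 of the 48 genes matched a promoter in the RefSeq table, with 43 windows. Searched on both strands, the loose antioxidant response element core TGANNNNGC was in 25 of the 43 windows (58.1%), beside 41.3% of all 32851 promoter windows of the same length. Of the 9 genes called higher that have a window, 6 held it (Psma7, Psmb5, Psmb6, Psmd1, Psmd13 and Psme2), as did 17 of the other 31. The core of the interferon-stimulated response element was in 5 windows (11.6%, beside 3.44%), those of Psmb3, Psmd4, Psmd9, Psme1 and Psmg4. The interferon-gamma activated sequence, TTCNNNGAA, which reads the same on both strands, was in 3 (6.98%, beside 8.30%), among them Psmb8. The kappa B consensus was in 1 (2.33%, beside 4.51%), that of Psmd12, and the CCAAT box in 14 (32.6%, beside 37.4%). A match describes the letters in the window only.

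In the outer ring of the core IL-33 replicate 1 differed from replicates 2 and 3. Of 7 alpha subunits tested 1 was higher and 0 lower, beside 17.4% and 14.4% of all genes. The higher one, Psma7 (chr2:180036374-180042433), had 589, 483 and 434 normalized counts after IL-33 and 343, 302 and 331 with PBS. Its groups did not overlap; the log2 fold change was 0.61 (SE 0.18, adjusted p = 0.0337). The call was lost without IL-33 replicate 2 or any 1 PBS library (adjusted p from 0.0845 to 0.14; range over the 20 alternatives 0.00164 to 0.448), with quantile normalization, without the mean-variance trend and with both equal-total scalings, and with equal totals the log2 fold change was -0.42. Psma2 was the uncalled alpha subunit with the smallest p, at 287, 84.6 and 45.8 after IL-33 and 259, 279 and 312 with PBS. IL-33 replicate 1 was inside the PBS range and the other 2 IL-33 libraries far below it (log2 fold change -1.44, SE 0.56, adjusted p = 0.0818). The median of the 7 alpha subunits was 0.45 in IL-33 replicate 1, -0.76 in replicate 2 and -1.31 in replicate 3, each against the PBS mean on the log2 scale. Without IL-33 replicate 1, 5 of the 7 were called lower (Psma1, Psma2, Psma3, Psma4 and Psma6) and 1 higher, beside 28.4% lower and 28.0% higher of all genes.

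The 4 beta subunits without catalytic activity, Psmb1 to Psmb4, had no call by limma, edgeR or DESeq2, with limma log2 fold changes from -0.69 to -0.12, and 1 of them, Psmb1, was lower at an unadjusted limma p under 0.05. The share of all genes at that unadjusted threshold is not given here. Without IL-33 replicate 1, Psmb1, Psmb3 and Psmb4 were called lower, beside 28.4% of all genes. With it as the only treated library the log2 fold change of Psmb4 was 0.43. Psmb4 was the most abundant proteasome gene per length with PBS, at 604 ± 5.30 normalized counts per kilobase of exon (SD, n = 3). Together with Psmb5, Psmb6 and Psmb7 the standard beta ring had 2 of 7 members higher and 0 lower, beside 17.4% and 14.4% of all genes.

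Of the 17 regulatory particle subunits that the name pattern takes, 4 were higher and 0 lower by limma, edgeR and DESeq2 alike. Their median log2 fold change was 0.21, beside 17.4% higher, 14.4% lower and a median of -0.03 over all genes. Without IL-33 replicate 1 the counts were 5 higher and 4 lower, beside 28.0% and 28.4%, and with it as the only treated library 12 were higher, beside 18.8%. At an unadjusted limma p under 0.05, 5 were higher and 0 lower. The share of all genes at that unadjusted threshold is not given here, so this count is a description only. The pattern leaves out the base subunit Adrm1 and the lid subunit Shfm1 (also Sem1), which are counted with the partner genes. Both were called higher by limma, with log2 fold changes of 0.73 for Adrm1 (adjusted p = 0.0122) and 1.24 for Shfm1 (adjusted p = 0.00208). The 6 ATPases of the base, Psmc1 to Psmc6, had no call by any of the 3 tools and none at an unadjusted p under 0.05, with log2 fold changes from -0.53 to 0.33. Those with the smallest p were Psmc3, at 522, 615 and 605 normalized counts after IL-33 and 465, 485 and 434 with PBS (log2 fold change 0.33, SE 0.16, adjusted p = 0.142), and Psmc5, at 261, 198 and 203 against 189, 196 and 185 (0.21, SE 0.19, adjusted p = 0.404). Both had non-overlapping groups but small differences. Without IL-33 replicate 1, Psmc1, Psmc2 and Psmc6 were called lower and Psmc3 higher, whereas with it as the only treated library Psmc1, Psmc2 and Psmc6 were called higher.

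Of the 3 other base subunits that the name pattern takes, Psmd1 and Psmd4 were higher and Psmd2 was not called. Over all genes 17.4% were called higher and 14.4% lower. Psmd1, the scaffold that holds docking sites for ubiquitin receptors (chr1:86064387-86139151), had 1579, 1441 and 1166 normalized counts after IL-33 and 742, 773 and 650.0 with PBS. Each IL-33 library was well above the highest PBS library, and the log2 fold change was 0.94 (SE 0.18, adjusted p = 0.00692). Psmd4, a ubiquitin receptor (chr3:95032694-95042614), had 683, 867 and 920.3 after IL-33 and 509, 464 and 464 with PBS. Its log2 fold change was 0.77 (SE 0.17, adjusted p = 0.0139), and the call was lost without IL-33 replicate 2 or PBS replicate 2 or 3 (adjusted p from 0.0607 to 0.0774; range over the 20 alternatives 0.000259 to 0.428).

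Of the 8 lid subunits that the name pattern takes, 2 were higher and 0 lower, beside 17.4% and 14.4% of all genes. Psmd7 (chr8:107580381-107588464), the partner of the deubiquitinase Psmd14, had 700.4, 521 and 658 normalized counts after IL-33 and 348, 306 and 314 with PBS. The groups were far apart (log2 fold change 0.95, SE 0.18, adjusted p = 0.00736). Psmd14 itself had 477, 249 and 107 after IL-33 and 362, 318 and 321 with PBS, so IL-33 replicate 1 was above and the other 2 below every PBS library (-0.51, SE 0.46, adjusted p = 0.409; called lower without IL-33 replicate 1 and higher with it alone). It was added here after its values were seen. Psmd13 (chr7:140881968-140898643), another lid subunit, had 796, 1117 and 1139 against 644, 641 and 577, and the log2 fold change was 0.69 (SE 0.19, adjusted p = 0.0262). Exons of Sirt3 overlap 17.2% of its exonic bases. Its call was lost without any 1 library other than IL-33 replicate 1 (adjusted p from 0.0553 to 0.12, range over the 20 alternatives 0.000298 to 0.288). The call was also lost with quantile normalization and both equal-total scalings. With IL-33 replicate 1 as the only treated library the log2 fold change of Psmd13 was 0.36. Scaled to equal totals, all 4 regulatory particle genes called higher had log2 fold changes below 0, from -0.35 for Psmd13 to -0.09 for Psmd7, beside a median of -1.06 over all genes.

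The base chaperones Psmd5, Psmd9 and Psmd10, which help the ATPase ring form, had no call by limma, edgeR or DESeq2, and none at an unadjusted p under 0.05, with log2 fold changes from 0.10 to 0.27. Psmd10 had 229, 211 and 173 normalized counts after IL-33 and 175, 151 and 180.3 with PBS (0.27, SE 0.19, adjusted p = 0.3). Psmd9 had 120.5, 158 and 186 against 130.5, 151 and 127 (0.17, SE 0.22, adjusted p = 0.574). Both overlapped between groups. With IL-33 replicate 1 as the only treated library, Psmd5 was called higher.

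Among the activators, the caps that open the core without ATP, 2 of 4 were higher and 0 lower, beside 17.4% and 14.4% of all genes. Psme2 (chr14:55587441-55591113, minus strand), the beta chain of the PA28 ring, had 933, 697 and 624 normalized counts after IL-33 and 213, 195 and 245 with PBS. The lowest IL-33 library was above double the highest PBS library. Its means were 751 ± 162 and 217 ± 25.1 (SD, n = 3 per group), and the log2 fold change was 1.77 (SE 0.20, adjusted p = 0.000945), the smallest adjusted p in the family. The call was lost only when libraries were scaled to equal totals (log2 fold change 0.73, adjusted p = 0.159, the highest over the 20 alternatives; the lowest was 1.59e-12). Psme2 is 99.4% identical over 794 aligned bases to the copy Psme2b, and how reads that fit both were counted is not given.

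Psme1, the alpha chain of the same ring, lies beside Psme2 (chr14:55578123-55581529, plus strand) and had 459, 406 and 378 normalized counts after IL-33 and 262, 364 and 329.9 with PBS. The groups did not overlap, but the gap was narrow and the gene was not called (log2 fold change 0.39, SE 0.19, adjusted p = 0.146). Per kilobase of exon the pair stood at 287 ± 46.4 (Psme1) and 223 ± 25.8 (Psme2) with PBS and at 373 ± 37.2 and 769.7 ± 166 after IL-33 (SD, n = 3 per group). The difference in response between the chains was not tested.

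The promoter of Psme2 is shown as that of the activator with the highest fold change (chr14:55591052-55591351, GRCm38.p6, minus strand, 5′ to 3′). Capitals mark the match to the loose core TGANNNNGC, which starts 13 bases after the transcript start, and none of the other motifs searched matched this window.
Psme2: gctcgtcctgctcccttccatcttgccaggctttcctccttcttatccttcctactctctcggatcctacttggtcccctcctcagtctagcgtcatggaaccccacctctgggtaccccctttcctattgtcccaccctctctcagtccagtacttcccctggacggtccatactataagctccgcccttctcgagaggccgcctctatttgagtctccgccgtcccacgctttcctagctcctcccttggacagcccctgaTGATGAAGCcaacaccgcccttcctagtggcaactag
A second RefSeq window of Psme2, which starts downstream of this one, contains the same match.

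Psme3, the nuclear activator PA28 gamma (chr11:101316213-101323537), had 735, 1004 and 1368 normalized counts after IL-33 and 519, 599.5 and 563 with PBS. All IL-33 libraries were above all PBS libraries (log2 fold change 0.84, SE 0.23, adjusted p = 0.0283). The call was lost without IL-33 replicate 2 or any 1 PBS library (adjusted p from 0.085 to 0.104; range over the 20 alternatives 0.000238 to 0.56), and with equal totals the log2 fold change was -0.20. Psme4, the nuclear activator PA200 (chr11:30771726-30880361), had 1060.0, 519.8 and 302 after IL-33 and 847, 771 and 866 with PBS. IL-33 replicate 1 was above and the other 2 below every PBS library, and the gene was not called (-0.59, SE 0.39, adjusted p = 0.27). Without IL-33 replicate 1 it was called lower (-1.06, adjusted p = 0.00113, the lowest over the 20 alternatives; the highest was 0.707), and with that library as the only treated one the value was 0.36.

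**Figure D4:**
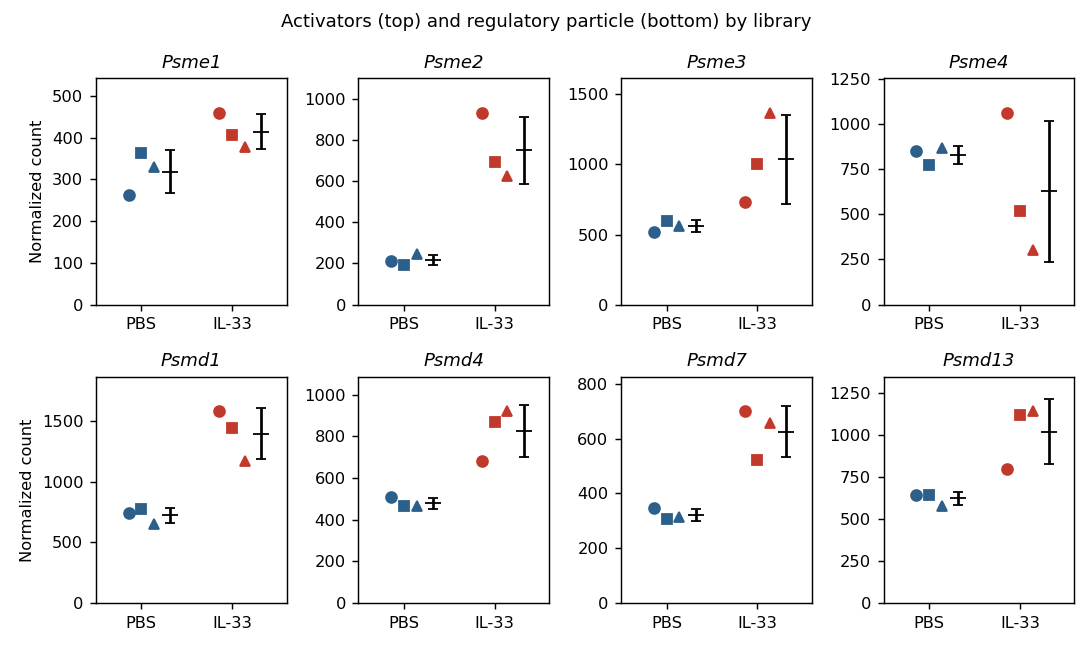
Normalized counts (y axis, starting at 0) of the 4 activators and of the called regulatory particle genes in each PBS (blue) and IL-33 (red) library, with circles, squares and triangles for replicates 1, 2 and 3 and black bars for the group mean ± SD. IL-33 points lie above all PBS points for every gene shown except Psme4, whose IL-33 points lie on both sides.

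Of the core chaperones and the inhibitor PI31 (Psmf1), 1 of 4 tested was lower and 0 higher, beside 14.4% and 17.4% of all genes. Psmg4 had 6.29, 4.61 and 3.39 normalized counts after IL-33, from 7, 3 and 2 reads, and 10.1, 12.4 and 31.4 with PBS, from 13, 17 and 45 reads. The log2 fold change was -1.58 (SE 0.51, adjusted p = 0.0462). It passed the filter on low values only through the PBS group, where it is high, so its call supports nothing further, and it was lost without IL-33 replicate 2 (adjusted p = 0.105) or 3 (adjusted p = 0.0898), within a range of 0.0135 to 0.14 over the 16 alternatives that tested it. Psmg3 had 47.7, 47.7 and 52.5 after IL-33 and 24.9, 39.3 and 29.4 with PBS, with no overlap and no call (0.67, SE 0.26, adjusted p = 0.0829). Psmf1 and Psmg1 were not called, and their groups overlapped.

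Many members differed more among the IL-33 libraries than between the groups. In IL-33 replicate 1, 38 of 45 members were above every PBS library and 5 below. Replicate 2 had 21 above and 23 below, and replicate 3 had 18 above and 20 below. The same counts over all genes tested, as shares, were 40.8% above and 39.8% below in replicate 1, 41.2% and 43.8% in replicate 2, and 43.2% and 44.8% in replicate 3. In 16 members replicate 1 was above every PBS library and replicate 3 below every one, which was so for 9.16% of all genes. These 16 were Psma1, Psma3, Psma4, Psma6, Psmb3, Psmb4, Psmb7, Psmc1, Psmc2, Psmc4, Psmc6, Psmd2, Psmd5, Psmd14, Psme4 and Psmf1. The median member stood at 0.45, -0.14 and -0.10 in IL-33 replicates 1, 2 and 3 against the PBS mean (log2), beside 0.01, -0.03 and -0.03 over all genes. Of all reads outside Rn45s, proteasome genes took 0.317%, 0.246% and 0.215% in the IL-33 libraries and 0.266% to 0.270% in the PBS libraries.

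Within IL-33 replicates 2 and 3 the differences varied with the base composition of the transcripts. Across the 45 members, Pearson's r between transcript GC content and the difference from the PBS mean was -0.17 in IL-33 replicate 1, 0.37 in replicate 2 and 0.58 in replicate 3, and over 10437 annotated genes it was 0.02, 0.29 and 0.39. These are correlations across genes of the same libraries, given as a description. The 22 members below the median GC content of 51.0% had medians of 0.52, -0.38 and -0.85 in the 3 IL-33 libraries, and the 23 others 0.43, 0.16 and 0.26. Of the limma calls, 7 of the 10 higher and both of the lower ones were in the second set. The shares of all genes called in these GC ranges are not given here. These counts therefore cannot tell whether the calls go with GC content. The libraries with the steepest GC relation, IL-33 replicates 2 and 3, are those with the highest Rn45s share; the part of either in the results was not tested. With the trend on GC content and length removed from each library, an alternative added after the data were seen, all 12 calls were made and Psma5, Psmd6 and Psmd10 were called higher as well, which gave 13 higher and 2 lower beside 18.6% and 17.3% of all annotated genes.

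**Figure D5:**
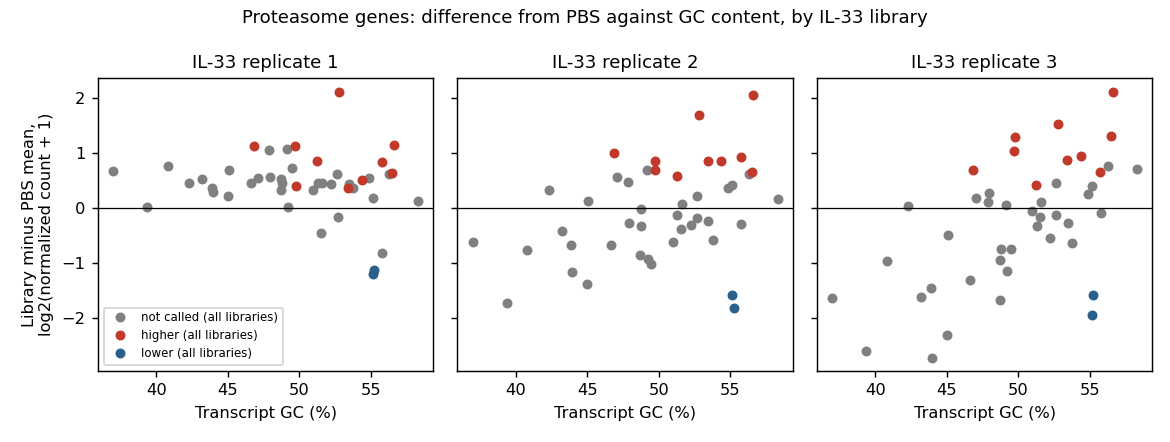
Difference of each IL-33 library from the PBS mean (y axis, log2) against transcript GC content in percent (x axis) for the 45 tested members, 1 panel per IL-33 library, coloured by the call over all libraries (red higher, blue lower, grey not called). Points in replicate 1 lie mostly above 0 at all GC contents, whereas in replicates 2 and 3 members with low GC content lie mostly below 0.

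The genes that work with the proteasome were measured as well. Of 23 ubiquitin-proteasome partner genes measured, 9 were higher and 2 lower, with a median log2 fold change of 0.29, beside 17.4%, 14.4% and -0.03 over all genes. The list includes ubiquitin genes, shuttle factors, the segregase p97 and its adaptors, proteasome-bound deubiquitinases, and the regulatory particle subunits Adrm1 and Shfm1. The 3 higher genes with the largest changes were the shuttle factor Rad23b (1.85, adjusted p = 0.00342), the nuclear import factor Akirin2 (1.59, adjusted p = 0.0227) and Zfand2a, a stress-induced proteasome-associated zinc finger protein (1.49, adjusted p = 0.0136). The Akirin2 call was lost without IL-33 replicate 2 or any 1 PBS library (adjusted p from 0.0617 to 0.0958) and with equal totals (0.145, the highest over the 20 alternatives; the lowest was 3.37e-06). That of Zfand2a was lost without PBS replicate 2 (adjusted p = 0.062) or 3 (adjusted p = 0.0702) and with equal totals (0.47, the highest; the lowest was 4.3e-05). Adrm1, the ubiquitin receptor that docks on Psmd1, had 387, 364 and 393 normalized counts after IL-33 and 235, 231 and 225 with PBS (0.73, SE 0.16, adjusted p = 0.0122). Its call was lost without PBS replicate 2 or 3, with both equal-total scalings (log2 fold change -0.31 with equal totals) and with the GC and length trends removed (0.29). Uchl5, the deubiquitinase held by Adrm1, was lower (-1.46, adjusted p = 0.00666), with the call lost once the GC and length trends were removed (-0.88). Pomp, the chaperone that completes the core, was not called, at 209, 98.4 and 78.0 against 185, 171 and 149.6 (-0.52, SE 0.35, adjusted p = 0.273).

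Of 8 regulators of proteasome genes 1 was higher and 1 lower, beside 17.4% and 14.4% of all genes. Nfe2l1, the factor known to drive proteasome gene transcription when proteasome activity is short, had 2663, 3371 and 3942 normalized counts after IL-33 and 1127, 1147 and 1029 with PBS. Every IL-33 library was above double every PBS library (1.58, SE 0.18, adjusted p = 0.000941), and the call was lost only with equal totals (0.54). Its relative Nfe2l2 had 692, 232 and 173 against 379.8, 398 and 454, again with replicate 1 above and the others below the PBS range (-0.43, SE 0.45, adjusted p = 0.476).

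Of 5 genes of class I peptide loading 1 was higher and 1 lower, beside 17.4% and 14.4% of all genes. Tapbp, the chaperone tapasin, had 5758, 10441 and 12672 normalized counts after IL-33 and 2682, 2219 and 2164 with PBS (1.96, adjusted p = 0.0025), and the peptide-trimming enzyme Erap1 had 85.4, 41.5 and 22.0 against 106, 128 and 160.0 (-1.57, adjusted p = 0.0304). The Erap1 call was lost without IL-33 replicate 2 or any 1 PBS library (adjusted p from 0.0684 to 0.124, where the lowest over the 20 alternatives was 0.000145) and with IL-33 replicate 1 as the only treated library (-0.59). The peptide transporter genes Tap1 and Tap2 lie beside Psmb9 and Psmb8 on chromosome 17. Tap1 had 331, 818 and 1059 after IL-33 and 537, 578 and 555 with PBS, and Tap2 825, 2099 and 2973 against 1169, 1534 and 1178. In both, IL-33 replicate 1 was below and the other 2 above every PBS library, and neither was called (0.25, SE 0.38, adjusted p = 0.634 for Tap1; 0.43, SE 0.42, adjusted p = 0.443 for Tap2).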

How the data were processed

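RNA-seq libraries of 3 IL-33 and 3 PBS samples of mouse bone marrow-derived eosinophils were analysed from 1 table of 23420 genes. Its values are a signal that the authors deposited: gene counts divided by library size factors. Per the submitters' processing notes, HISAT2, HTSeq, DESeq2 and the build mm10 were used. The sources used here give no versions, annotation or strand setting. All values came out as whole reads (within 0.1 read) once divided by each library's step, which gave the depth. Every sample column was used.

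Main test: limma 3.58.1 (R 4.3.3) with a mean-variance trend on log2(value + 1), genes with at least 10 in at least 3 libraries, two-sided, Benjamini-Hochberg over 10544 genes, called at adjusted p under 0.05. A log2 fold change on this scale understates that of low genes. edgeR 4.0.16 (quasi-likelihood) and DESeq2 1.42.0 were run on the recovered reads. Alternatives were other pseudocounts, filters and scalings (TMM, equal totals with and without Rn45s, quantile), no trend, a replicate block, each library left out, IL-33 replicate 1 alone, and removal of GC and length trends by splines with 5 degrees of freedom. The fits were also run on simulated counts, with the spread of both groups taken from the PBS libraries. No GC trend or Rn45s difference was simulated, so that run does not check the fits for IL-33 libraries that differ as described.

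Positions, overlaps and transcript GC content are from GENCODE vM21 (GRCm38), which held all 48 genes; promoters are from RefSeq.

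Members and gene lists were chosen with earlier results of these data known. Named with values: the catalytic subunits and activators, in each other group of members up to 3 called genes per direction or, with fewer than 2 called, the 2 with the smallest p, and in the partner lists up to 3 called genes per direction plus Nfe2l1, Nfe2l2, Pomp, Adrm1, Tap1 and Tap2. Some genes of the partner and marker lists are counted with their lists but not reported here by name.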

Additional observations from a re-analysis of the deposited data

How the results depend on the processing

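The test of all genes gave 1837 higher and 1522 lower. With libraries scaled to equal totals it gave 262 and 5281, with 1 member higher and 11 lower, and the median member was -0.94 beside -1.06 over all genes. With equal totals without Rn45s it gave 951 and 3567, with 3 members higher and 5 lower, and a median member of -0.32 beside -0.45. Relative to the median gene the 10 members called higher stood at 0.64 to 1.79 with equal totals. Equal totals shift all genes nearly alike, so this restates the main result. In that scaling 21 of the 45 members went from above to below 0; among the genes that the naming rule picks, partners included, the values were -0.17 for Psmb10, -0.23 for Psmb6, -0.65 for Psme1, -0.20 for Psme3, -0.42 for Psma7, -0.71 for Psmc3, -0.83 for Psmc5, -0.10 for Psmd1, -0.27 for Psmd4, -0.093 for Psmd7, -0.35 for Psmd13, -0.77 for Psmd10, -0.87 for Psmd9, -0.35 for Psmg3, -0.31 for Adrm1, -0.80 for Tap1 and -0.61 for Tap2. With equal totals without Rn45s 9 members did, and among the same genes the values were -0.037 for Psme1, -0.094 for Psmc3, -0.21 for Psmc5, -0.15 for Psmd10, -0.26 for Psmd9 and -0.18 for Tap1. Tap1 was also -0.020 with quantile normalization and -0.087 with the GC and length trends removed, and from -0.10 to 0.74 with 1 library left out. With IL-33 replicate 1 alone, 23 members were called higher, the median member was 0.45, and 18 members went from below to above 0 and 1 the other way; among the same genes, signs changed for Psmb7 (0.32), Psme4 (0.36), Psma2 (0.020), Psmd9 (-0.17), Nfe2l2 (0.76), Pomp (0.31), Tap1 (-0.75) and Tap2 (-0.64). Members called lower were 1, without Psmg4, under no filter, a filter of 50, quantile normalization and the replicate block. Leaving out each library in turn gave 695 to 2910 genes higher, 318 to 2950 lower, 4 to 12 members higher, 0 to 16 lower, and a median member of -0.19 to 0.15. The log2 ratio differences ran from -2.48 to -2.02 for Psmb8 to Psmb5, -2.59 to -2.14 for Psmb9 to Psmb6 and 0.92 to 2.27 for Psmb10 to Psmb7. Except where stated, the cause was not tested. Whether replicate numbers pair the samples is not stated in the labels. Correlations of same-numbered deviations were 0.046, 0.24 and -0.16, and not every library correlated best with its own number. With 3 libraries per group that differ as described, these correlations cannot settle the pairing. With the number as a replicate block, 1620 genes were higher and 1298 lower, with 9 members higher and 1 lower. Psma7 and Psmg4 were then no longer called. Quantile normalization ended the calls of Psma7, Psmd13, Psme3 and Psmg4, and the fit without trend that of Psma7. Low read numbers limit Psmb9, Psmg1, Psmg3, Psmg4 and the 3 untested genes.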
